A study of Mus musculus with 16 samples.

Results

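The glucocorticoid response of HL-1 cells in the presence of estradiol is described here from 6 arrays, 3 labelled Dex+E2 against 3 labelled E2, out of 16 in the series. HL-1 is an established line of mouse atrial cardiomyocytes, derived from female cells per the labels. All groups were treated for 6 h: Vehicle (PBS), Dex (dexamethasone, a synthetic glucocorticoid, at 100 nM), E2 (estradiol, an estrogen, at 10 nM) and Dex+E2 (both hormones at the same doses), with 4 arrays each. The series' design text gives 4 independent experiments. Both groups compared here therefore carried E2 and differed by Dex, in 1 cell line.

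The arrays were chosen by the level of 1 gene, Per1, read from the probe A_52_P79889. Per1 encodes a repressor of the circadian clock and is a classical direct target of the glucocorticoid receptor. Levels are log2 of the processed signal, set against each array's own 75th percentile. On the arrays labelled E2, Per1 lay at -0.90 on E2-1, -1.06 on E2-2, -1.34 on E2-3 and 1.90 on E2-4. On the arrays labelled Dex+E2 it lay at 1.81 on Dex+E2-1, 1.77 on Dex+E2-2, -1.18 on Dex+E2-3 and 1.90 on Dex+E2-4. E2-4 and Dex+E2-3 went against their labels, in the sense of the known Per1 response, and were left out. Since the arrays were selected on Per1 in the same contrast, every difference between the 3 Dex+E2 and the 3 E2 arrays is a description of these arrays. The calls made in it sort genes by size and spread and do not test the hormone, and Per1 itself is left out of all counts.

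Glucocorticoids bind the glucocorticoid receptor, a transcription factor that moves to the nucleus with its ligand and binds response elements near target genes. Well-known targets include clock genes, Krüppel-like and C/EBP transcription factors, metallothioneins, lipid droplet proteins and feedback regulators of kinase signalling. Cardiomyocytes express this receptor, and estradiol acts in them through estrogen receptors and the membrane receptor Gper1.

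**Figure D1:**
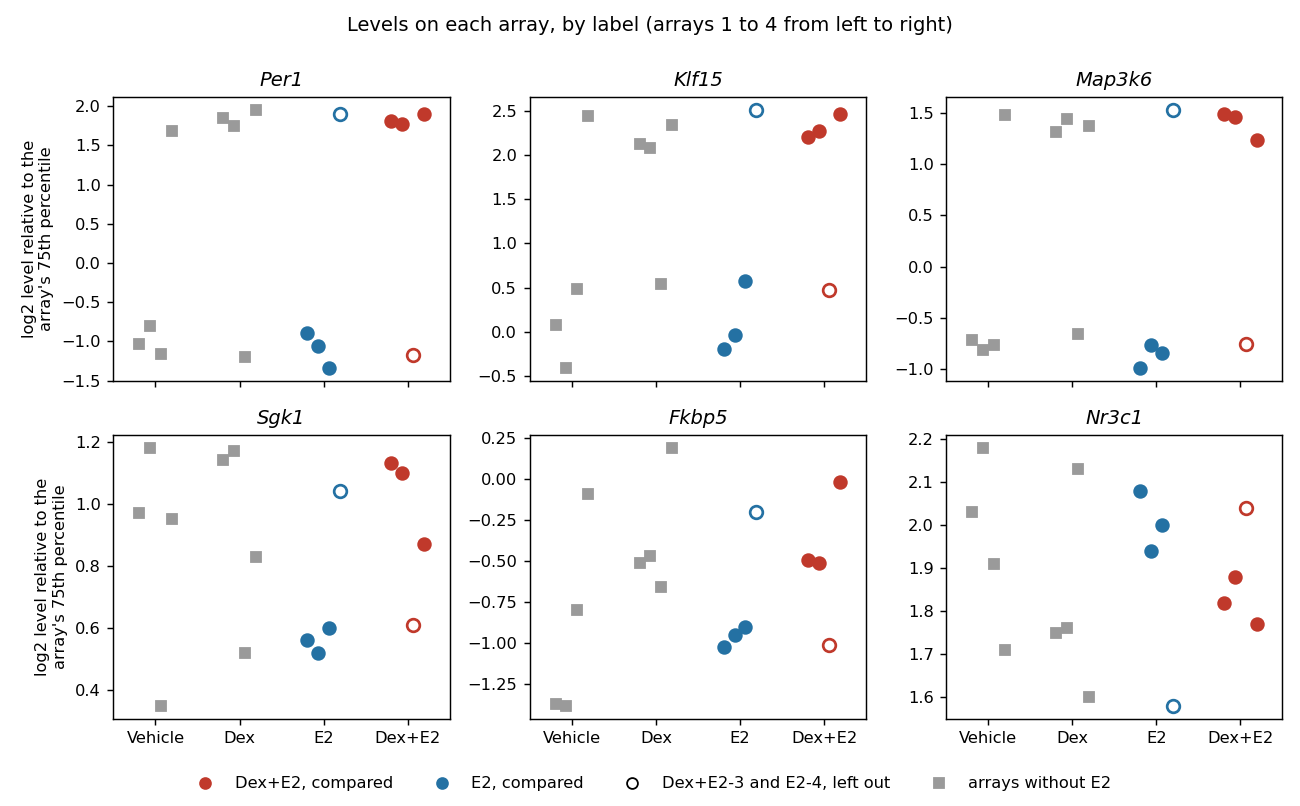
Log2 level relative to the array's 75th percentile (vertical axis) of 6 genes on all 16 arrays, grouped by label (horizontal axis), each point 1 array. Filled circles are the 6 arrays compared, open circles the 2 left out and grey squares the arrays without E2. For Map3k6, the 3 Dex+E2 arrays compared lie between 1.24 and 1.49, and the 3 E2 arrays between -0.99 and -0.77.

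Gene by gene, the arrays of a group were compared first. The median gene differed by 0.10 to 0.23 (log2) between 2 of the Dex+E2 arrays and by 0.12 to 0.18 between 2 of the E2 arrays. Per array, 58.6% to 62.8% of probes were well above background on the 6 arrays, and 0 spots were saturated. The arrays of each slide were scanned together, and slides and groups overlapped only in part: E2-1 and E2-2 lay on slide 2, Dex+E2-1 and Dex+E2-2 on slide 3, and E2-3 and Dex+E2-4 on slide 4. All 12 atrial cardiomyocyte markers, among them Nppa, Myl7 and Tnnt2, were well above background on all 6 arrays. Of the endothelial markers, 6 of 8 were above background on none of the 6 arrays, Pecam1 and Cdh5 included. The same held for Ptprc, Adgre1, Itgam and Lyz2 of the leukocyte list and Lum and Thy1 of the fibroblast list. Other cell type markers were well above background on all 6 arrays: 6 of 10 fibroblast, 5 of 5 smooth muscle, 3 of 9 leukocyte and 2 of 8 endothelial markers.

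With Dex on top of E2, 214 genes were called higher and 75 lower, of 17313 tested without Per1. A gene was called at an adjusted p under 0.05 (limma, Benjamini-Hochberg over all genes), and the calls made up 1.67% of the genes tested, 1.24% higher and 0.433% lower. The median difference was 0.99 over the genes called higher and -0.73 over those called lower, against 0.01 over all genes tested. Over the called genes that were well above background on all 6 arrays, 91 were higher and 12 lower by at least 2-fold, and 12 were higher and 0 lower by at least 4-fold. In total 2930 of the 17313 genes had groups of arrays that did not overlap, and all 289 called genes were among them. Most genes without overlap were therefore not called. Leaving out 1 array moved the number of calls, which was 132 without Dex+E2-2, 156 without E2-1, 95 without E2-2 and 127 without E2-3. With slide as a fixed block, which leaves Dex+E2-4 against E2-3 on slide 4 as the difference, 21 genes were called.

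**Figure D2:**
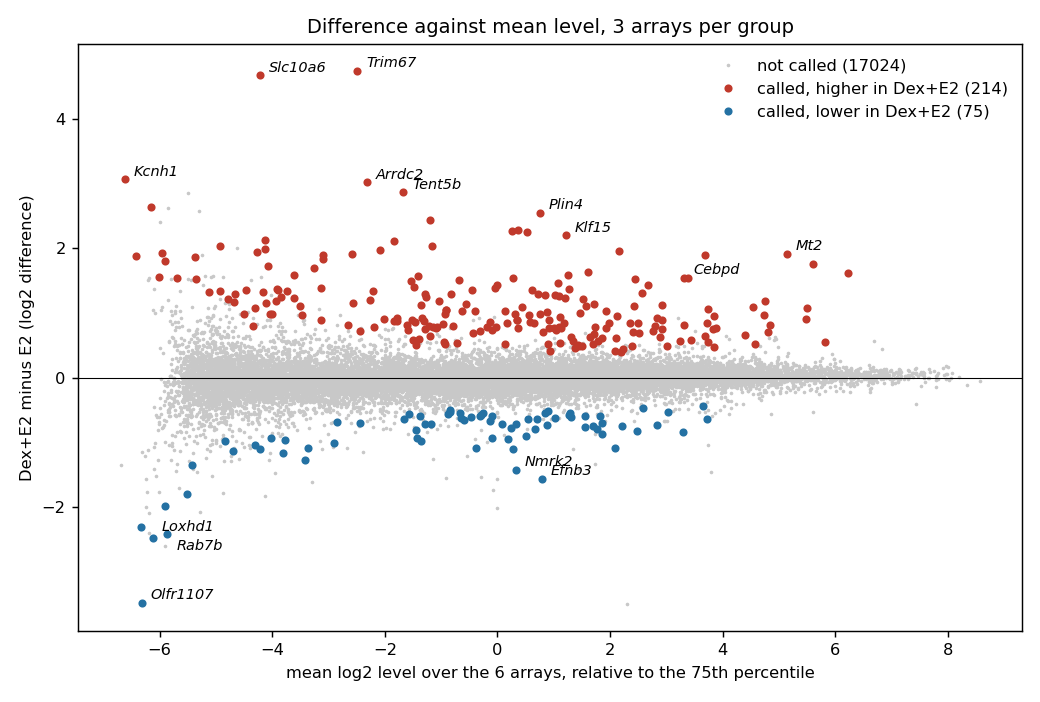
Log2 difference of Dex+E2 minus E2 (vertical axis) against the mean log2 level over the 6 arrays (horizontal axis), each point 1 gene. Of the genes tested, 214 were called higher (red) and 75 lower (blue), and Trim67 and Slc10a6 stand furthest above 0, the latter with a signal well above background on 1 of 3 E2 arrays.

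Trim67 and Slc10a6 were among the genes called higher. Trim67, a member of the tripartite motif family of ubiquitin ligases, lay at -0.06, -0.01 and -0.30 on Dex+E2-1, -2 and -4 and at -5.14, -4.83 and -4.63 on E2-1, -2 and -3. The difference was 4.75 ± 0.16 (SE, n = 3 per group), or 26.8-fold. Its size depended on the processing: the difference was 2.88 with the local background subtracted and 50 added, and 0.71 with normexp, another correction. Both settings added 50 to the signal, so the correction and the added constant were not told apart. Slc10a6, a transporter of sulphated steroids, lay at -1.86, -2.16 and -1.64 with Dex+E2 and at -5.80, -7.06 and -6.82 with E2, where only 1 of the 3 arrays read it well above background. Its difference is therefore not given as a fold. In both genes every Dex+E2 array lay far above every E2 array. Kcnh1, a voltage-gated potassium channel gene, was well above background on 3 of 3 Dex+E2 arrays and on 0 of 3 E2 arrays. In the reported setting its fold is a bound, at least 2.09-fold higher, taken against the lowest signal well above background on each E2 array. With the local background subtracted and 50 added, Kcnh1 was 1.33-fold higher.

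Signalling and structural genes followed. Arrdc2, which encodes an arrestin domain protein, lay at -0.83, -0.96 and -0.65 with Dex+E2 and at -3.92, -3.86 and -3.72 with E2, a difference of 3.02 ± 0.13 (SE). Tent5b, a terminal nucleotidyltransferase gene, differed by 2.87 ± 0.14. Adamts1, a secreted metalloprotease, was higher by 2.28 ± 0.15, and B4galnt1, a glycosyltransferase of ganglioside synthesis, by 2.43 ± 0.13. A further probe of B4galnt1 gave 1.26. Wipf3, which binds actin regulators of the WASP family, the tight junction gene Cldn2, the actin-binding Eps8 and the secreted glycoprotein Lrg1 were higher by 2.11, 2.04, 1.99 and 1.97. Under normexp, which called 59 genes, Arrdc2, Tent5b and Wipf3 differed by 0.17, 0.58 and 0.10 and lost their calls, and the differences of Slc10a6 (-0.29), Kcnh1 (-1.0), Eps8 (-0.66) and Lrg1 (-0.095) turned negative, as did those of Plin5 (-0.76) and Cry2 (-0.49). Subtracting the local background directly and adding 50 turned none of them. Kcnh1 (0.41), Plin5 (0.47) and Cry2 (0.47) lost their calls there, among 18 of 53 named called genes that did.

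**Figure D3:**
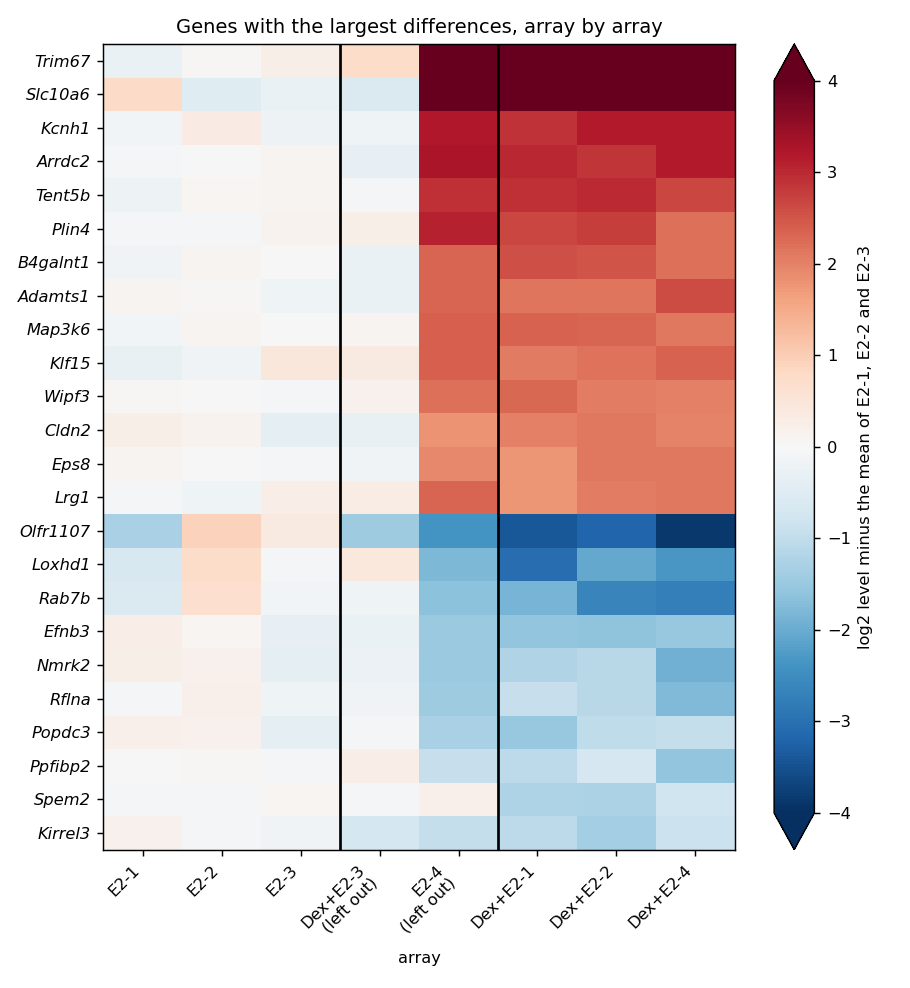
Log2 level minus the mean of E2-1, E2-2 and E2-3 (colour) for 14 genes of the largest increase and 10 of the largest decrease (vertical axis) on the 8 arrays labelled E2 or Dex+E2 (horizontal axis). The left-out array Dex+E2-3 stands beside the E2 arrays and the left-out E2-4 beside the Dex+E2 arrays, and for most genes each resembles its neighbours in colour.

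Of the 3 genes given as markers of the response, Klf15 and Map3k6 were called and Sgk1 was not. Klf15, a Krüppel-like transcription factor of metabolic genes, lay at 2.20, 2.27 and 2.47 with Dex+E2 and at -0.20, -0.04 and 0.57 with E2. The groups did not overlap, and the difference was 2.20 ± 0.19 (SE), with 1.88 on its other probe. Map3k6, a kinase at the head of a stress-activated MAP kinase cascade, lay at 1.49, 1.46 and 1.24 against -0.99, -0.77 and -0.84, a difference of 2.26 ± 0.10 (SE). Sgk1, a kinase that regulates sodium transport, lay at 1.13, 1.10 and 0.87 with Dex+E2 and at 0.56, 0.52 and 0.60 with E2. Its groups did not overlap either, but the difference of 0.47 ± 0.09 (SE) did not pass the threshold, though it passed in 5 of 20 other settings. On the arrays without E2, Sgk1 stood at 0.97 on Vehicle-1, 1.18 on Vehicle-2 and 0.35 on Vehicle-3, so Vehicle arrays covered the range of the Dex+E2 arrays.

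Established glucocorticoid targets were among the genes called higher. Of 41 tested members of the list of glucocorticoid-induced genes, 17 were called higher and 0 lower, 35 had a positive difference, and the median difference was 0.54. Over all genes tested, 1.24% were called higher and 51.8% of differences were positive. The list was chosen with earlier results of these data known, so its counts are a description. The C/EBP factors Cebpd and Cebpb, which act in acute-phase and fat cell programmes, were higher by 1.55 ± 0.13 and 1.39 ± 0.13 (SE). Cebpd lay at 4.07, 4.19 and 4.02 with Dex+E2 and at 2.33, 2.51 and 2.81 with E2. The transcriptional repressor Bcl6 differed by 1.14, and Errfi1, an inhibitor of the EGF receptor, by 0.47. The metallothioneins Mt2 and Mt1, small metal-binding proteins, were higher by 1.92 ± 0.20 and 1.19 ± 0.15 (SE), while the other 6 tested genes of the metallothionein and zinc list were not called. Mt1 lay at 5.46, 5.55 and 5.0 with Dex+E2 and at 4.07, 4.18 and 4.19 with E2. Some textbook targets did not pass. Fkbp5, a co-chaperone that limits ligand binding by the receptor, differed by 0.61 ± 0.14 (SE) on the probe used and by 1.01 and 0.71 on 2 others. The leucine zipper gene Tsc22d3, whose product GILZ restrains inflammation, differed by 0.54 ± 0.11, and the phosphatase gene Dusp1 by -0.06 ± 0.12. Zbtb16, another usual target, had no named probe here.

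**Figure D4:**
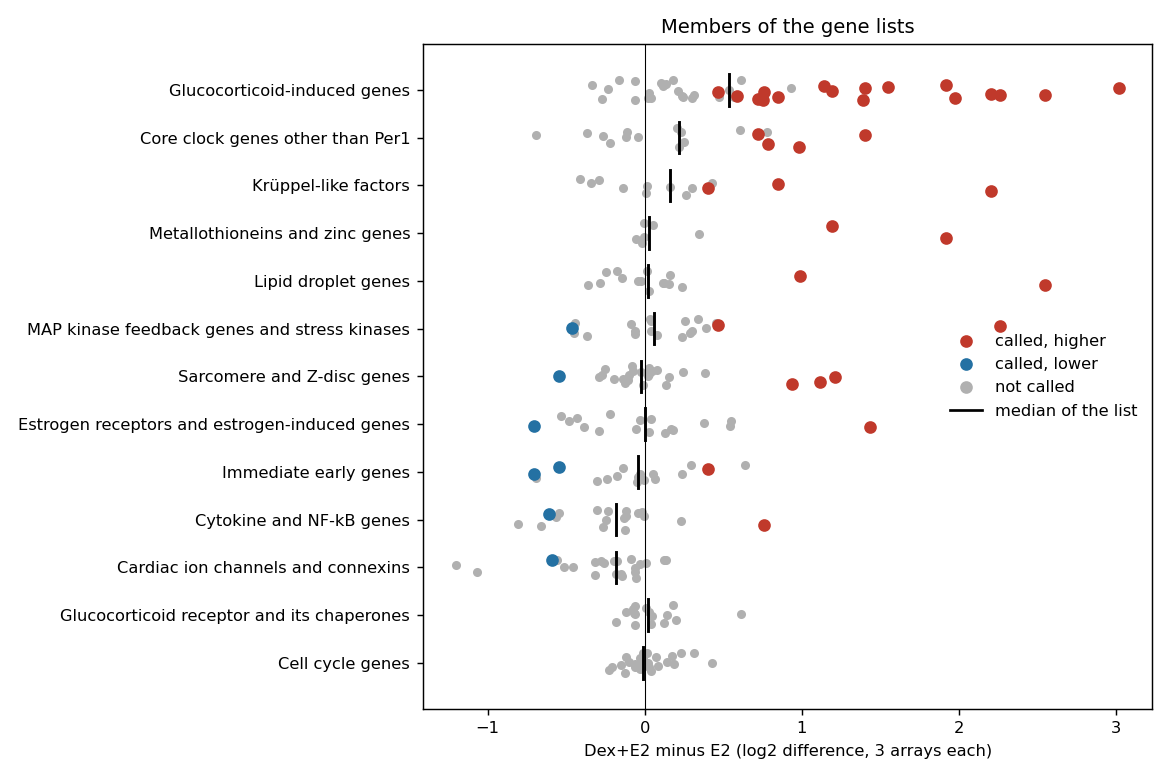
Log2 difference of Dex+E2 minus E2 (horizontal axis) for the tested members of 13 gene lists (vertical axis), each point 1 gene, with the median of a list as a black bar. In the glucocorticoid-induced list 17 of 41 points are called higher and 0 lower, while the receptor and chaperone list and the cell cycle list hold 0 calls.

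Clock genes other than Per1 were higher in part. Of 17 tested, 4 were called higher and 0 lower, with a median difference of 0.22. Per2, the paralogue of Per1, lay at -0.63, -0.89 and -0.83 with Dex+E2 and at -2.03, -2.24 and -2.30 with E2, a difference of 1.40 ± 0.12 (SE), against 0.455 on its other probe. The activator Hlf was higher by 0.98 ± 0.11, the repressor Nfil3 by 0.78 ± 0.10 and the repressor Cry2 by 0.72 ± 0.12 (SE). Clock and Arntl, which encode the activating pair of the oscillator, showed differences of 0.23 ± 0.08 and 0.22 ± 0.11 and were not called. Nr1d1, the nuclear receptor that represses Arntl, lay 0.69 lower, at -0.69 ± 0.15 (SE), also without passing. Among 13 Krüppel-like factors, Klf15, Klf9 (0.85 ± 0.13) and Klf4 (0.40 ± 0.07) were called higher, the other 10 were not, and the median was 0.16.

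Calls in the lists of lipid droplet, fatty acid oxidation and FOXO genes were few, and all were higher. Plin4, a coat protein of lipid droplets, lay at 2.16, 2.23 and 1.69 with Dex+E2 and at -0.59, -0.60 and -0.37 with E2, a difference of 2.55 ± 0.15 (SE). Plin5, a perilipin of oxidative tissues, differed by 0.99 ± 0.19. These were the 2 called of 16 tested lipid droplet genes, and the list's median difference was 0.02. Pdk4, the kinase that shuts off pyruvate dehydrogenase, was higher by 0.75 ± 0.08, and Acsl1, which activates fatty acids, by 0.59 ± 0.10 (SE), the 2 called of 23 fatty acid oxidation genes. In the list of FOXO, atrophy and insulin signalling genes, Cited2 and Sesn1 were higher by 0.54 and 0.49 and the other 18 were not called. Cited2 lost its call in 15 of 20 other settings and Sesn1 in 10 of 20. Among the uncalled genes, the muscle ubiquitin ligase gene Trim63 differed by -0.53 ± 0.12 and Fbxo32 by 0.04 ± 0.18 (SE). Of 9 tested NAD synthesis genes, 1 was called in each direction. Nampt, the enzyme of the salvage route from nicotinamide, was higher by 0.57 ± 0.07, and Nmrk2, the muscle kinase of nicotinamide riboside, was lower by 1.42 on the log2 scale, at -1.42 ± 0.24 (SE).

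Contractile genes were called in a few members. Of 27 sarcomere and Z-disc genes, 3 were called higher and 1 lower, and the median was -0.02. Myh7, the slow myosin heavy chain, lay at 2.45, 2.26 and 1.68 with Dex+E2 and at 1.03, 0.88 and 0.83 with E2, a difference of 1.21 ± 0.18 (SE), with 1.27 on a second probe. The Z-disc protein Myoz2 differed by 1.12 ± 0.13 and the M-band protein Myom2 by 0.94 ± 0.12. Csrp3, the muscle LIM protein, was lower, at -0.55 ± 0.08 (SE). Sarcolipin (Sln), an inhibitor of the calcium pump, was the 1 called of 19 calcium-handling genes and was higher by 1.13 ± 0.16 (SE). Myh6, the fast atrial isoform, differed by 0.24 ± 0.17 and Nppa, the atrial natriuretic peptide, by -0.33 ± 0.13, both without passing. In the list of cardiac transcription factors, Gata6 was the 1 called of 19, higher by 0.81 ± 0.08 (SE), from 2.91 ± 0.06 (SD, n = 3) to 3.72 ± 0.05.

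Genes called lower were fewer and their differences smaller. Efnb3, an ephrin ligand, lay at 0.00, -0.03 and 0.06 with Dex+E2 and at 1.82, 1.63 and 1.25 with E2, a difference of -1.55 ± 0.14 (SE) with no overlap. The filamin-binding Rflna differed by -1.26, the Popeye-domain gene Popdc3 by -1.16, the liprin Ppfibp2 by -1.10, Spem2 by -1.10 and the adhesion molecule Kirrel3 by -1.09. A second probe of Kirrel3 gave -0.377. The same genes were read without E2, as Dex-1 and Dex-2 minus Vehicle-1 and Vehicle-2. There the differences were -1.68 in Rflna, -0.74 in Popdc3, -1.49 in Ppfibp2, 0.09 in Spem2 and -0.33 in Kirrel3. Spem2 lay at -4.69 and -4.81 on those Vehicle arrays, within the range of the Dex+E2 arrays, and at -3.68 on Vehicle-3. Olfr1107, Loxhd1 and Rab7b were well above background on 3 of 3 E2 arrays and 0 of 3 Dex+E2 arrays. In the reported setting the differences are therefore bounds, at least 2.72-fold lower in Olfr1107, 2.20-fold in Loxhd1 and 2.59-fold in Rab7b. With the local background subtracted and 50 added, they were 1.36-fold, 1.16-fold and 1.14-fold lower and were not called. The E2 arrays themselves spread widely in these 3 genes, from -5.88 to -3.66 in Olfr1107. On Vehicle-1, -2 and -3, Loxhd1 lay at -8.12, -4.87 and -7.31, a range that covers its Dex+E2 arrays. Olfr1107 lay there at -5.14, -6.30 and -8.37, and Rab7b at -3.83, -5.37 and -5.06. Among immediate early genes, Egr1 was lower at -0.71 ± 0.11 and Ier3 at -0.55 ± 0.10, Klf4 was higher, and Fos, Jun and the other 12 of 17 were not called. Spry1, a feedback inhibitor of receptor tyrosine kinases, was lower at -0.46 ± 0.08 (SE).

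Lists of inflammation and membrane excitability held few calls but mostly negative values. In the cytokine and NF-kB list, Relb was lower at -0.61 ± 0.08 and Nfkbia, the inhibitor of NF-kB, higher by 0.76 ± 0.09 (SE, from 2 Dex+E2 arrays, since the Dex+E2-4 spot carried an outlier mark). Of its 18 tested genes 2 had a positive difference, and the median was -0.18. Of 23 ion channel and connexin genes, Kcnh2, which carries the rapid repolarising current, was the 1 called, at -0.59 ± 0.11 (SE), 3 had a positive difference and the median was -0.18. Cacna1g, a T-type calcium channel, and Gja5, the atrial connexin, stood at -1.20 ± 0.25 and -1.06 ± 0.26 (SE) without passing. Over all genes tested, 51.8% of differences were positive. No gene was called (limma) of 24 cholesterol synthesis genes, 24 ER stress genes, 26 cell cycle genes or 21 interferon-response genes. These lists held 3, 5, 3 and 1 genes at an unadjusted p under 0.05 (limma), against 1841 of all 17313 genes tested.

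Of the hormone receptor genes tested, Gper1 was called, and Nr3c1 and Esr2 were not. Nr3c1, the glucocorticoid receptor, lay at 1.82, 1.88 and 1.77 with Dex+E2 and at 2.08, 1.94 and 2.00 with E2, a difference of -0.18 ± 0.08 (SE) that did not pass. Its groups did not overlap, but its other probes ranged from -0.29 to -0.003. Of the 16 tested genes of the receptor and chaperone list 0 were called (limma). An unadjusted p under 0.05 was reached by 2 of them, against 1841 of all 17313 genes tested. The gene of estrogen receptor alpha, Esr1, reached a signal well above background on 0 of 16 arrays. Esr2, encoding estrogen receptor beta, differed by -0.53 ± 0.12 (SE) without passing. Gper1 was called lower, at -2.81, -2.71 and -2.86 with Dex+E2 against -2.05, -2.03 and -2.19 with E2, a difference of -0.70 ± 0.12 (SE). Of 18 tested genes of the estrogen receptor and target list, Gper1 was the 1 called lower and the chemokine Cxcl12 the 1 called higher, by 1.43 ± 0.15. The estrogen target Greb1 differed by 0.54 ± 0.15 and was not called, and the list's median was -0.001.

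Promoter sequences were read for the tested genes, with the called genes set beside them, as a description. The receptor's response element is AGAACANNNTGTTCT, and ACANNNTGT is its core, so the core overlaps it. Both read the same on either strand. RefSeq windows of GRCm38.p6, from 250 bases before to 50 after a start, matched 10310 of the tested genes. The core was found in 5.0% of these genes, in 13 of 142 genes called higher (9.15%) and in 3 of 43 called lower (6.98%). The whole element was found in 1 gene, Sgk1. The half-site AGAACA, searched on both strands and overlapping the whole element, was in 14.8% of all genes, 14.1% of those called higher and 11.6% of those called lower. A match is a description of letters, and no match says only that they are not in this window. The core with 24 bases on each side is given for 3 genes called higher, and for Sgk1 upstream of each of its starts that held it. Map3k6 and Sgk1 were given as markers, and Sgk1 alone held the whole element. Windows of named genes on 1 chromosome were left out of this listing. Among the other named genes the core also lay in windows of Olfr1107, called lower, and Greb1, not called, whose letters are not shown. No window of the marker Klf15 held it. Capitals mark the core, written 5′ to 3′ along the gene's strand.
Map3k6 (chr4:133240615-133240671, plus strand): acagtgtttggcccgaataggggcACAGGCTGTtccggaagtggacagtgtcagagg
Mt1 (chr8:94178973-94179029, plus strand): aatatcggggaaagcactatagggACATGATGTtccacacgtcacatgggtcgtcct
Slc10a6 (chr5:103629532-103629588, minus strand): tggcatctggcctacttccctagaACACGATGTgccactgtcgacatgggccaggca
Sgk1, one start (chr10:21978521-21978577, plus strand): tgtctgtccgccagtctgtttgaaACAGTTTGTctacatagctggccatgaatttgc
Sgk1, another start (chr10:21993680-21993736, plus strand): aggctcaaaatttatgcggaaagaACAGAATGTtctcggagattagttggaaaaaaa
Relative to the start, the core began at -179 in Map3k6, -92 in Mt1, -161 in Slc10a6, and -127 and -186 in Sgk1.

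The 2 arrays left out were compared with the others gene by gene, as a description, because they too were set apart by Per1. The difference of E2-4 minus Dex+E2-3 had the sign of the difference between the chosen groups in 214 of 214 genes called higher and 72 of 75 called lower, with medians of 0.96 and -0.69. Over all genes the median of that difference was 0.04. On a scale where the mean of the 3 E2 arrays is 0 and that of the 3 Dex+E2 arrays is 1, the genes called higher had a median position of 1.02 on E2-4 and 0.04 on Dex+E2-3. For Trim67, E2-4 stood at 0.01 and Dex+E2-3 at -4.12. With these arrays kept under their labels, 8 arrays in all, 0 genes were called (0%, limma), and 675 had an unadjusted p under 0.05. All 289 genes kept the sign of their difference there, with medians of 0.52 and -0.39. Since 6 of these 8 arrays made the calls, the sign was largely set beforehand and its keeping adds no support. Within slide 4, the difference of Dex+E2-4 minus E2-3, 2 of the arrays that made the calls, had medians of 0.88 over the genes called higher and -0.76 over those called lower, against -0.11 over all genes. Label and position on the slide cannot be told apart there, nor on slide 1.

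**Figure D5:**
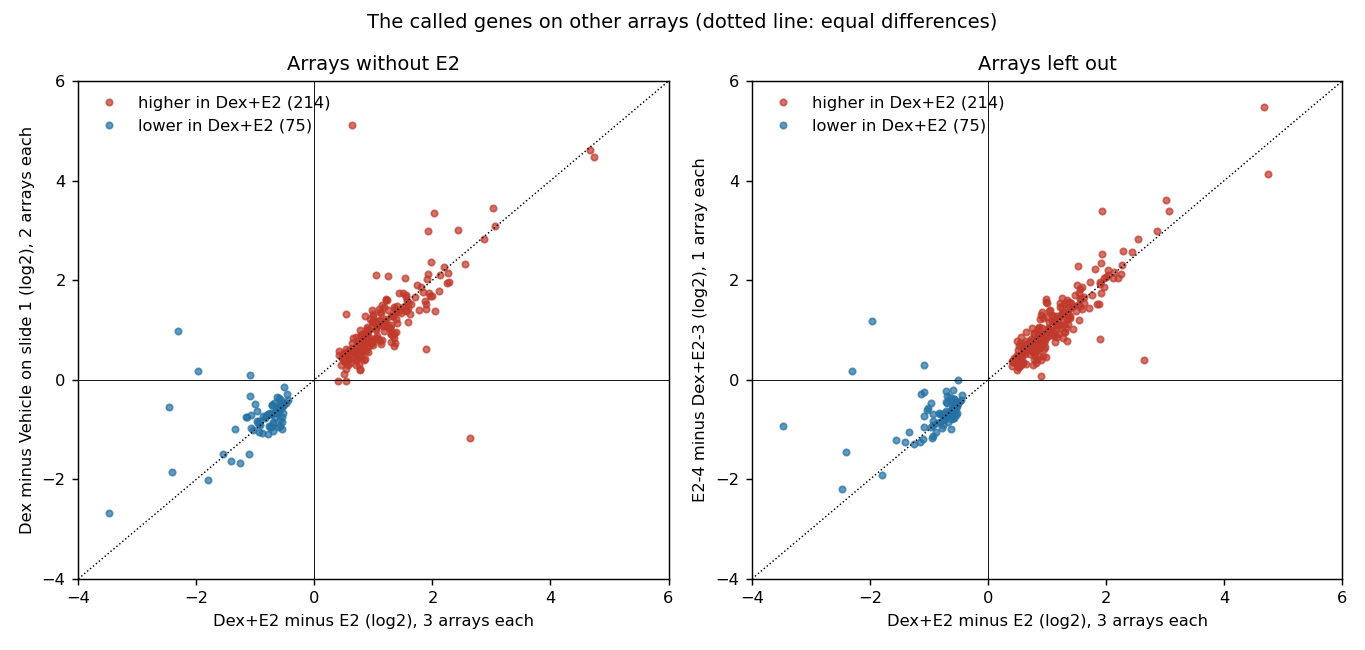
The 289 called genes, with the difference of Dex+E2 minus E2 on the 6 chosen arrays (horizontal axis, log2) against Dex minus Vehicle on slide 1 (left, vertical axis, log2) and E2-4 minus Dex+E2-3 (right, vertical axis, log2). Points above and below 0 on both axes share a sign: 211 of the 214 red and 72 of the 75 blue points on the left, and 214 and 72 on the right.

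The response to Dex without E2 was tested on slide 1, whose arrays the choice above did not use. Per1 went with the label on each of them, at 1.85 on Dex-1, 1.75 on Dex-2, -1.03 on Vehicle-1 and -0.81 on Vehicle-2. The arrays that went against their labels, Vehicle-4 and Dex-3, lay on other slides, so taking slide 1 alone is not independent of Per1. On slide 1, which held Dex-1, Dex-2, Vehicle-1 and Vehicle-2 and from which no array was left out, 42 of the same 17313 genes were higher with Dex (0.243%) and 5 lower (0.0289%; limma, adjusted p under 0.05). Of the 214 genes called higher with E2 present, 41 were among the 42, which is 19.2% of the former and 97.6% of the latter. Of the 75 called lower, 3 were among the 5, which is 4% and 60%. The median slide 1 difference of the 214 was 0.91 and that of the 75 was -0.70, against -0.02 over all genes. Of the 41 glucocorticoid-induced genes, 8 were higher on slide 1 and 0 lower. In this test Trim67 rose by 4.47 ± 0.12, Arrdc2 by 3.46 ± 0.22, Map3k6 by 2.14 ± 0.09, Klf15 by 2.26 ± 0.18, Cebpd by 1.41 ± 0.08 and Mt1 by 1.21 ± 0.08 (SE, n = 2 per group, adjusted p = 0.011, 0.030, 0.017, 0.044, 0.028 and 0.028 with limma). Nmrk2 fell by 1.63 on the log2 scale and Efnb3 fell by 1.502 (adjusted p = 0.028 and 0.044 with limma). Sgk1 differed by 0.08 ± 0.10 (adjusted p = 0.68), and Klf4 by -0.03 ± 0.12 (adjusted p = 0.91). With 2 arrays per group the count rested on each array, and it was 0 without Dex-1 or without Dex-2, 6833 without Vehicle-1 and 1680 without Vehicle-2. Over all 8 arrays labelled Dex or Vehicle, 0 genes were called (0%, limma) and 1356 had an unadjusted p under 0.05. There Vehicle-4, with Per1 at 1.68, and Dex-3, with Per1 at -1.20, went against their labels as well.

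Whether the response with E2 differed from that without it was examined on 12 arrays, the 6 above with Dex-1, -2 and -4 and Vehicle-1, -2 and -3, chosen on Per1 too. The contrast of the 2 responses called 0 of 17313 genes (0%, limma), with a smallest adjusted p of 0.97 and 695 genes at an unadjusted p under 0.05. For the genes called higher with E2, the median of the difference between the responses was 0.10, and for those called lower -0.04. For Klf15 it was 0.07, for Map3k6 0.12 and for Sgk1 0.26, while for Per2 it was 0.42. The genes with the smallest unadjusted p were Dicer1 (0.55), Afdn (0.52), Rfx1 (0.99), Luzp1 (0.71) and Kdm5a (0.63), none of which was called with E2 present. Dicer1, which cuts miRNA precursors, lay at 0.09, -0.07 and -0.02 with Dex+E2 and -0.13, -0.21 and -0.11 with E2, but at -0.22, -0.17 and -0.40 with Dex and 0.13, 0.08 and 0.18 with Vehicle. A response of equal size with and without E2 is not shown by a count of 0.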

How the data were processed

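Total RNA was labelled with Cy3 and hybridised to single-colour Agilent arrays on 4 slides of 4. Per the file headers, the deposited processed signal is a linear intensity after background subtraction, and the submitters' processing notes name Agilent Feature Extraction, version 12. The authors also deposited a table of log2 values (every column with a median of 4.70, lowest r with its own array 0.999, method not given in the sources used here), used as an alternative. Control and outlier-marked spots were left out, spots of a probe averaged, and log2 signal set against the array's 75th percentile. A gene was kept if 1 of the chosen groups had a probe well above background on each of its 3 arrays, and was read from the probe with the highest mean over 16 arrays. RefSeq accessions (GRCm38.p6) named 28223 of 41174 probes, and 12875 of 17313 tested genes. Comparisons used limma 3.58.1 (lmFit, eBayes with trend, R 4.3.3), two-sided, with Benjamini-Hochberg adjustment over all genes, after a check on simulated data.

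Named are Per1, the 15 largest increases and 10 largest decreases among called genes with symbols and no overlap (1 of them is not reported here), the called members, 4 at most, of each list that had 2 or more, a fixed panel of hormone targets and the 5 smallest p of the difference between responses. Other list members were named after their values were seen. The members and lists were chosen with earlier results of these data known. For normexp, the median and local background signals took the place of the mean signal. The number of arrays limits the precision.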

Additional observations from a re-analysis of the deposited data

Results flagged for a closer look

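In groups of 4 arrays under 1 label, an array was marked where its gap to the nearest other, as a share of the group's range, exceeded Dixon's critical value, as chance does in about 1 in 20 groups. Among the 4 arrays labelled E2, E2-4 was marked in Per1 (1.90), Map3k6 (1.53) and Sgk1 (1.04). Among those labelled Dex+E2, Dex+E2-3 was marked in Per1 (-1.18), Klf15 (0.47) and Map3k6 (-0.76). Per1 set these arrays apart, so its marks add nothing. Of the called genes, 97 of 289 had a marked array among the E2 arrays, and in all 97 it was E2-4. Of the 287 with all 4 Dex+E2 arrays, 90 had one, and in all 90 it was Dex+E2-3. Over all genes tested the shares were 6.82% and 7.90%. Genes were called where the chosen arrays of each label lay close together and apart from the other group. In called genes, Klf15 and Map3k6 included, the left-out array is therefore the one apt to be marked, and these counts add no support.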

How the results depend on the processing

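The count of 289 called genes stayed within 1.5 times under 9 planned settings, from 202 with no filter on dim probes to 384 with the spread taken from 12 arrays, including quantile normalization (348), the deposited log2 table (338) and slide as a random block (250). It was 0 over all 8 labelled arrays, 21 with slide as a fixed block, 59 with normexp and 1890 with the replicate block, which leaves 1 residual degree of freedom. Leaving out 1 array gave 95 to 332. Of 56 named genes, 27 to 47 then kept their side of the threshold and 0 changed sign. Over 20 other settings, named calls were often lost, by Popdc3 in 16, Cited2 in 15 and Klf4 and Ier3 in 14 each. Plin5 lost its call in 14 and turned negative in 1 more. Spem2, Spry1 and Errfi1 lost theirs in 13 each, while Klf15, Map3k6 and Plin4 each lost theirs in 1. With normexp, 86.4% of calls were higher against 74% in the reported setting, and 6 named genes changed sign: Slc10a6 (-0.29), Kcnh1 (-1.0), Eps8 (-0.66), Lrg1 (-0.095), Plin5 (-0.76) and Cry2 (-0.49). Its estimated background mean ran from -747 to -6.95 over the 16 arrays of the series. On the arrays compared it was -747, -416 and -299 on E2-1, -2 and -3, and -14, -56.1 and -654 on Dex+E2-1, -2 and -4. The cause was not tested. Subtracting the local background and adding 50, chosen after seeing the data, gave 227 calls and changed no sign among the named genes. Of the 53 that were called, 18 lost their call. Same-numbered arrays were taken to share only a number: their deviations correlated at 0.48 and 0.23 for the 2 numbers the groups share, but at 0.05 to 0.46 over all 8 arrays. The 47 calls on slide 1 became 73 with quantile normalization, 8 with no filter, 1 with no trend in the variance, 26 with the replicate block and 0 to 6833 without 1 array. The 3 counts of 0 were 0 under every setting tried for them. Dim genes are limited by background: 8 genes called higher were above it on 0 E2 arrays, and 7 called lower on 0 Dex+E2 arrays.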

Other observations

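Genes of vasoactive peptides, in a list drawn up after the values were seen, were called in both directions. Agt, the precursor of angiotensin, was higher with Dex+E2 than with E2 by 1.38 ± 0.19 (SE, n = 3 per group), the receptor gene Agtr1a by 0.79 ± 0.12, the endothelin-converting enzyme Ece1 by 1.33 ± 0.15 and the endothelin receptor Ednrb by 0.74 ± 0.12. Edn1, which encodes endothelin itself, was lower, at -0.59 ± 0.09 (SE). These were 4 higher and 1 lower of 10 tested, with a median of 0.29. On slide 1, without E2, the corresponding Dex minus Vehicle values were 1.23, 0.80, 1.28, 0.77 and -0.60, and 0 of the 10 passed there.

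Vascular growth factor genes, in a list of the same kind, held 3 higher and 2 lower of 14 tested, with a median of -0.10. Angpt1 was higher by 1.34 ± 0.26, the receptor Kdr by 0.87 ± 0.11 and Vegfd by 0.78 ± 0.12, while Fgf18 stood at -0.79 ± 0.12 and Pdgfa at -0.53 ± 0.09 (SE). Vegfa differed by -0.09 ± 0.10 and was not called. Kdr is also an endothelial marker, and the summed level of that list lay at 1.02 to 1.15 on the Dex+E2 arrays and at 0.13 to 0.43 on the E2 arrays. Vwf, the other gene of that list that was tested, differed by -0.18 ± 0.25 (SE), and Pecam1, Cdh5, Tek, Emcn, Tie1 and Erg were above background on none of the 6 arrays. The summed levels of the other cell type lists overlapped between the groups, at 5.34 to 5.81 with Dex+E2 and 5.55 to 5.81 with E2 for fibroblast, 8.54 to 8.82 and 8.63 to 8.72 for smooth muscle, and -2.44 to -2.30 and -2.35 to -1.96 for leukocyte markers.

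Single genes of other lists were called higher as well: Nfe2l2, the regulator of antioxidant genes, by 0.85 ± 0.14, and the glucose transporter Slc2a1 by 0.76 ± 0.11 (SE). Each was the 1 called member of its list. Of the 24 extracellular matrix genes tested, Adamts1 was called higher and the laminin gene Lamb1 lower, at -0.52 ± 0.09 (SE). Of 11 genes of the sodium, potassium and Sgk1 pathway, 18 adrenergic and cyclic AMP genes and 18 TGF-beta and BMP targets, 0 were called (limma). An unadjusted p under 0.05 was reached by 2, 2 and 4 of them, against 1841 of all 17313 genes tested.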
